A study of Mus musculus with 10 samples.

Results

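The sites described here are the 491 of 1626 listed RNA sites that the deposited table places in its intermediate class, chosen by that class name alone. Each site is an ACA triplet, where the RNA can be cut, in an 11-base sequence whose base 6 is the first A of the triplet. The sources used here do not say how the class was made, and a difference between it and the low (249 sites), high (771) or highest (115) class is a description. The cells were mouse embryonic stem cells (ESC) and embryoid bodies (EB), aggregates grown from them in suspension for 9 days in serum medium without LIF and without kinase inhibitors. The stem cells had been expanded on feeder fibroblasts and then passaged on gelatin, free of serum, with LIF, CHIR99021 and PD0325901. Both stages were wild type (WT) or homozygous knockout for Mettl3 (KO), with 3 libraries per genotype in ESC and 2 in EB. No clone, strain or deletion design is given in the labels, and neither the knockout nor the cell types could be checked, because the table holds no expression values.

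As background, N6-methyladenosine (m6A) is the most common internal modification of messenger RNA, and the complex that writes it, with METTL3 as its catalytic subunit, prefers the consensus DRACH (D is A, G or T; R is A or G; H is A, C or T). Reader proteins of the YTH family bind m6A and direct the RNA to decay or other fates. The bacterial RNase MazF cuts at ACA and is blocked by methylation of its first A, so that low cutting in WT with high cutting in KO is the pattern of a methylated site. No label used here names the enzyme. Exon junctions are also part of the background, because the exon junction complex is known to keep the methylation machinery from the sequence around them.

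Every site has 1 deposited cleavage efficiency for each group with a value, where 0 stands for no cutting and 1 for complete cutting. The number of reads behind it is unknown (no depth is given), and the table has no column per library. No test over libraries was therefore possible, and no p-value is given. A site is said to respond when its efficiency was at least 0.10 higher in KO than in WT of the same stage. As a measure of scatter, the absolute change from ESC to EB within KO had a 95th percentile of 0.179 over the 237 intermediate sites with all 4 values. That size is above 0.10 and holds error and stage together, so counts at 0.20 are given as well. As background, EB can hold several cell types, and a value then averages over all of them; a different mix of cells and a different cutting within each cell cannot be told apart.

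The sequences below carry the range of behaviour in the class, with bases 4 to 9 in capitals: the pentamer that ends in ACA, and the base after it. Base 5 was G at every site, and base 4 was G at 291 sites (GGACA) and A at 200 sites (AGACA). Positions are those of the 11 bases in mm9, and sequences are written 5′ to 3′ on the strand named. The first group holds GGACA sites that were little cut in WT and mostly cut in KO.
Ctbp2, 3′ UTR, chr7:140179411-140179421, minus strand: ggaGGACATtg
Phf20, 3′ UTR, chr2:156133915-156133925, plus strand: aaaGGACAGca
Cant1, CDS, chr11:118269142-118269152, minus strand: agaGGACAAtg
B3gnt2, CDS, chr11:22736841-22736851, minus strand: gccGGACAGat
Topors, CDS, chr4:40207849-40207859, minus strand: gaaGGACAGtc
Tbc1d10b, CDS, chr7:134351351-134351361, minus strand: gtaGGACAGgt

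The second group holds AGACA sites with large differences.
Son, CDS, chr16:91659675-91659685, plus strand: taaAGACATtc
Prdm2, CDS, chr4:142723256-142723266, minus strand: aagAGACATtc
D11Wsu47e, CDS, chr11:113549585-113549595, plus strand: cagAGACAGaa
Ahnak, CDS, chr19:9088653-9088663, plus strand: aatAGACATtg

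The third group holds sites with an assigned gene that were almost uncut in every column, and those printed all have G at base 9. A site without an assigned gene, with A there, was also low in every column, from 0.0036 to 0.0682.
Eif5, 5′ UTR, chr12:112776606-112776616, plus strand: ctgGGACAGtc
Caprin1, 5′ UTR, chr2:103637727-103637737, minus strand: cggGGACAGgg
Vapa, 5′ UTR, chr17:65962803-65962813, minus strand: agcGGACAGgc
Gars, CDS, chr6:54988173-54988183, plus strand: catGGACAGcg

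Intermediate sites were cut at a median of 0.533 in ESC WT (quartiles over 386 sites 0.220 and 0.807) and 0.8 in ESC KO (0.434 and 0.912, 369 sites). In EB the medians were 0.667 in WT (0.280 and 0.857, 388 sites) and 0.787 in KO (0.450 and 0.914, 282 sites). The WT columns thus lay below the KO columns in both stages, with the smaller gap in EB, where WT was cut more. Every column ran from 0 to at least 0.983. A level below 0.2 was found at 24.4% of the sites in ESC WT and 17% in EB WT, against 14.4% in ESC KO and 15.2% in EB KO. At least 0.8 was reached by 26.4% and 34.3% of the sites in ESC WT and EB WT, and by 50.4% and 48.6% in ESC KO and EB KO. Over all listed sites, 29.6% were below 0.2 in ESC WT, 23.9% in EB WT, 14.7% in ESC KO and 15.1% in EB KO. The shares of at least 0.8 there were 20.5% and 27.4% in WT, and 52.3% and 53.5% in KO, ESC first.

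Not every site could be compared. Both ESC values were listed for 321 sites, both EB values for 262, all 4 for 237, and 145 sites had no complete pair in either stage. Values in ESC alone were listed for 83 of the 491 sites and in EB alone for 57. Over all 1626 listed sites these counts were 269 and 174. An EB WT value and no other was listed for 40 sites of the class and 125 of all sites. One of the 40 lies in the CDS of Sox17, the endoderm transcription factor (0.271). The 84 sites with an ESC pair and no EB pair responded in ESC about as often as the rest, at 44.0% against 42.6%. EB KO was the column most often missing, at 78 of these 84 sites.

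In ESC, 138 of 321 intermediate sites (43.0%, 95% Wilson interval over sites 37.7% to 48.5%) responded to the knockout, and 10 were lower in KO by at least 0.10. Over all 1046 listed sites with both ESC values, 55.4% responded and 2.58% were lower by that size. The median difference, KO minus WT, was 0.0732 over intermediate sites (interval over sites 0.0597 to 0.0949, quartiles 0.00971 and 0.2) and 0.130 over all sites. In EB, 62 of 262 intermediate sites (23.7%, 18.9% to 29.2%) responded and 19 were lower, against 41.9% and 5.96% of all 855 sites. The EB median was 0.0197 over intermediate sites (0.01 to 0.0325) and 0.0638 over all sites. Differences of at least 0.20 were seen at 79 intermediate sites in ESC (24.6%) and 43 in EB (16.4%), where all sites gave 39.7% and 31.5%. A difference of at least 0.5 was found at 32 sites (9.97%) in ESC and 15 (5.73%) in EB, against 17.6% and 13% of all sites.

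**Figure D1:**
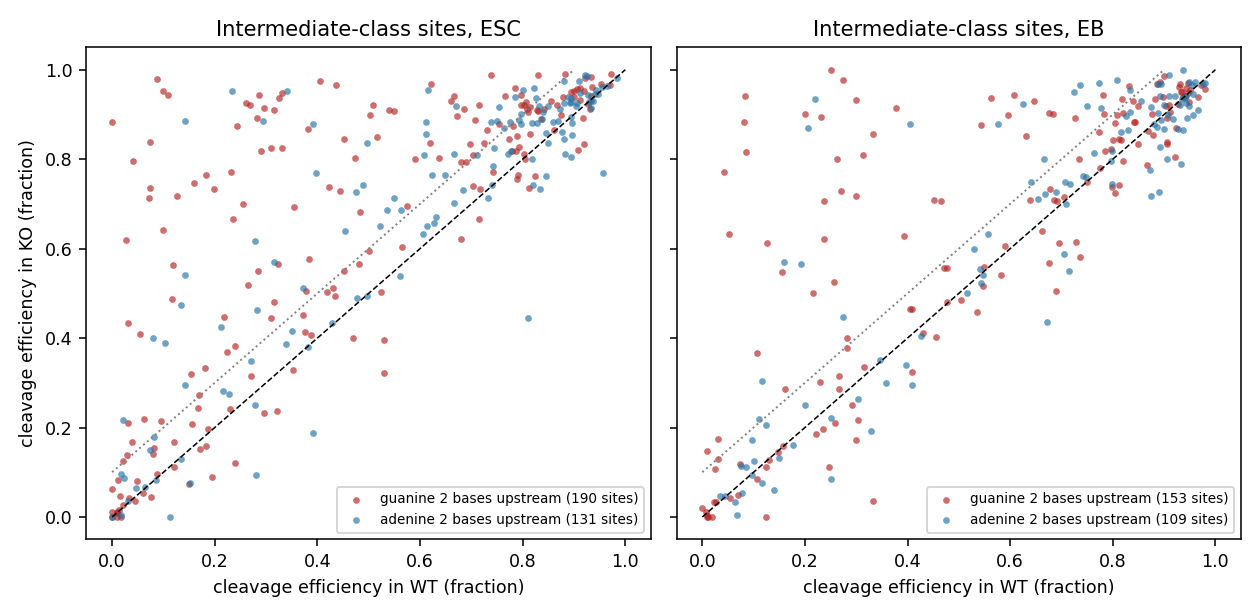
Cleavage efficiency (fraction) in WT (horizontal) and KO (vertical), 1 point per intermediate site, ESC being the left panel and EB the right one; red points have G and blue points A 2 bases upstream of the cut triplet, the dashed line marks equal values and the dotted line a difference of 0.10. The 138 responding sites in ESC and 62 in EB lie on or above the dotted line, while many sites lie along the dashed line at both of its ends.

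Many sites of the class were already well cut in WT. In ESC 90 of 321 sites (28.0%, against 21.1% over the whole table) were cut to at least 0.8 in WT, and 9 of these responded. A further 45 (14%, against 14.1%) stayed below 0.2 in KO, and 3 of these responded. Of the 186 sites between these ends, 126 (67.7%) responded, against 79.6% of such sites over the whole table. In EB the 3 counts were 94 sites cut to at least 0.8 in WT with 4 responding, 42 below 0.2 in KO with 2 responding, and 126 between with 56 responding (44.4%, against 69.4% over the whole table). The first 2 of these counts were 35.9% and 16.0% of the class in EB, against 29.8% and 15.2% over the whole table. The share of sites cut to at least 0.8 in WT lay between those of the neighbouring classes: 44.3% of the low class and 11% of the high class in ESC.

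Set beside its neighbours, the class lay between them in both stages. In ESC 21.6% of 176 low-class sites and 71.7% of 481 high-class sites responded, which is 21.4 percentage points below (Newcombe interval over sites 12.9 to 29.1) and 28.7 points above (21.9 to 35.3) the intermediate class. In EB the shares were 7.86% of 140 low-class sites and 60.2% of 392 high-class sites. The intermediate class was therefore 15.8 points above the low class (8.42 to 22.3) and 36.5 points below the high class (29.2 to 43.2). Such intervals describe how sites vary, not how cultures vary.

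The split by base 4 compares GGACA with AGACA, both of which match DRACH. GGACA sites were cut less in WT, at medians of 0.411 in ESC and 0.533 in EB, than AGACA sites, at 0.705 and 0.767. In KO the motifs lay closer together, at 0.757 and 0.829 in ESC and at 0.761 and 0.807 in EB. In ESC 95 of 190 GGACA sites (50%) and 43 of 131 AGACA sites (32.8%) responded, a gap of 17.2 percentage points (Newcombe interval over sites 6.19 to 27.4). In EB it was 43 of 153 (28.1%) and 19 of 109 (17.4%), a gap of 10.7 points (0.201 to 20.3). The EB interval lies close to 0 and holds 0 when 1 site per transcript is kept (−0.119 to 20.8), when KO is at least 0.20 (−0.0901 to 22.9) and over sites with all 4 values (−1.13 to 19.4). Median differences were 0.101 for GGACA and 0.0491 for AGACA in ESC, and 0.0251 and 0.0121 in EB. The high class had a wider gap, with 78.4% of GGACA and 58.6% of AGACA sites in ESC and 71.2% and 40.8% in EB, and in the low class the shares were 19.8% of GGACA and 23.2% of AGACA sites in ESC. Whether the gap differs between classes was not tested.

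Among sites with an assigned gene and all 4 values, the GGACA sites of the largest difference over both stages lay in genes of varied function. A site without an assigned gene, at 0.0735 in WT and 0.839 in KO in ESC and at 0.0811 and 0.882 in EB, would rank among them. The site of Ctbp2, a transcriptional corepressor gene, was cut to 0.0867 in WT and 0.979 in KO in ESC, and to 0.0825 and 0.942 in EB. The 3′ UTR site of Phf20, a reader of methylated lysine, was listed at 0 in ESC WT and 0.0851 in EB WT, and at 0.882 and 0.816 in KO. Both were thus nearly uncut in either WT column and cut to at least 0.816 in either KO column. Cant1, a nucleotidase gene, had 0.108 and 0.943 in ESC, and 0.2 and 0.900 in EB. The site of B3gnt2, a glycosyltransferase gene, was at 0.0263 and 0.618 in ESC and at 0.0426 and 0.772 in EB. Its KO levels were lower than those of Cant1. The site of Topors, an E3 ubiquitin and SUMO ligase gene, went from 0.260 to 0.926 between genotypes in ESC and from 0.3 to 0.932 in EB. Tbc1d10b, Mrfap1 and the chromatin remodelling gene Baz1b completed this group, with ESC differences of 0.663, 0.617 and 0.619 and EB differences of 0.579, 0.536 and 0.524.

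AGACA sites reached differences of like size in a few genes. Of those with an assigned gene and all 4 values, the largest over both stages was in Son, which encodes a splicing cofactor of nuclear speckles: 0.233 in WT and 0.953 in KO in ESC, and 0.219 and 0.934 in EB. Prdm2, a PR-domain zinc finger gene, was at 0.294 and 0.885 in ESC and at 0.207 and 0.870 in EB. Both sites have T after the triplet and lay far from the nearest exon junction, at 1145 and 1648 nt. D11Wsu47e differed by 0.398 in ESC and 0.410 in EB, and the mitotic kinesin gene Kif20a by 0.487 and 0.474. The next sites were those of Ahnak (0.340 and 0.374), the CXXC zinc finger gene Cxxc5 (0.248 and 0.230), the lipid phosphatase gene Plpp3 (0.2 and 0.302) and Anapc4 of the anaphase-promoting complex (0.286 and 0.188). Among these 8, Son, Prdm2 and Kif20a had the largest ESC differences. In ESC alone, an AGACA site without an assigned gene differed by 0.743 (0.143 in WT and 0.886 in KO) and that of Scaf8 by 0.612, neither with both EB values.

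The base at position 9, just after ACA, separated the levels of cutting far more than the response. Sites with A there were the best cut, at medians of 0.795 in ESC WT and 0.911 in ESC KO. Those with G were the least cut, at 0.304 and 0.515, and C (0.585 and 0.794) and T (0.481 and 0.856) lay between. EB gave the same extremes, with 0.829 in WT and 0.906 in KO for A and 0.401 and 0.556 for G. In ESC KO 78.5% of A sites and 27.9% of G sites were cut to at least 0.8, and of the 45 sites with both ESC values that stayed below 0.2 in KO, 30 had G. Over all listed sites, 115 of 148 such sites had G, and the ESC KO medians were 0.906 with A and 0.513 with G. In the class, G sites were thus the least cut in KO as well as in WT.

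Over all intermediate sites with both ESC values, the responding share hardly followed base 9. It was 33 of 84 sites with A (39.3%), 22 of 51 with C (43.1%), 53 of 122 with G (43.4%) and 30 of 64 with T (46.9%). The Wilson intervals, from 29.5% to 50% for A and from 35.2% to 58.9% for T, overlap widely. In EB it was 17 of 69 (24.6%), 7 of 40 (17.5%), 22 of 99 (22.2%) and 16 of 54 (29.6%) in the same order, again with overlapping intervals. Because a site cut to 0.5 at most has less room for a difference, the response was also taken relative to KO: WT lower by at least 0.25 of the KO value, where the KO value was 0.20 or more. This relative rule, chosen after the data were seen, called 20 of 81 A sites (24.7%), 16 of 48 C sites (33.3%), 36 of 92 G sites (39.1%) and 23 of 55 T sites (41.8%) in ESC. It placed A lowest among the bases in ESC, and over the class it called 34.4% in ESC and 21.4% in EB, where all sites gave 49.6% and 38.8%.

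**Figure D2:**
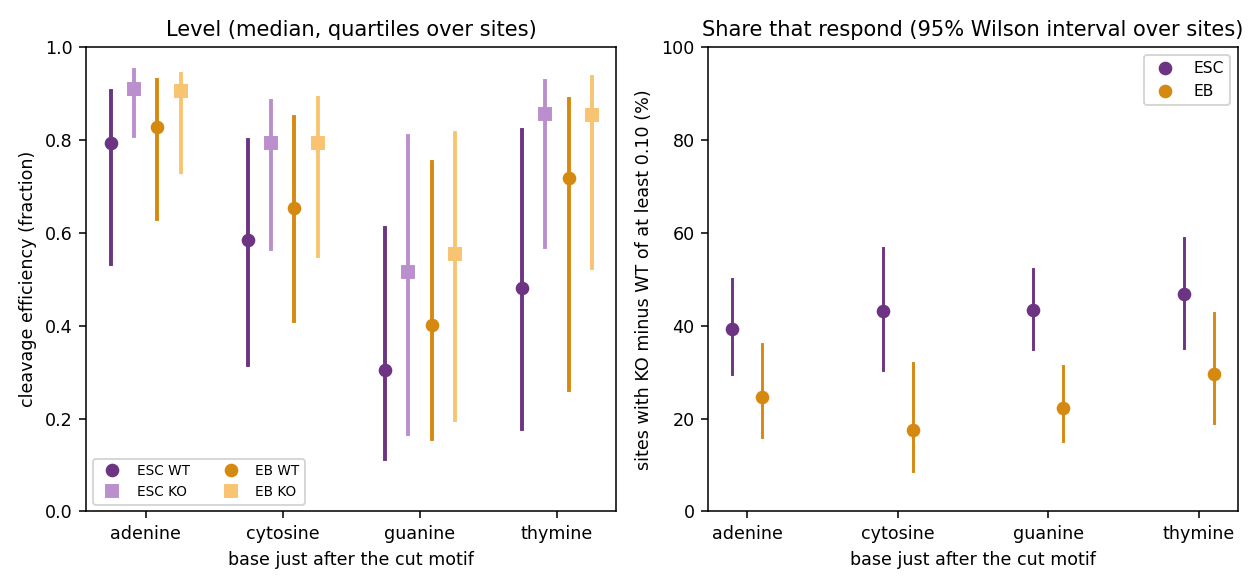
Left, median cleavage efficiency (fraction) of intermediate sites in each column by the base at position 9, with bars from the lower to the upper quartile over sites; right, the percent of sites with KO minus WT of at least 0.10 (ESC purple, EB orange), with 95% Wilson intervals over sites. Levels run from 0.304 (G) to 0.795 (A) in ESC WT, while the responding shares in ESC stay between 39.3% and 46.9%.

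Bases 4 and 9 together showed the gap of base 4 in ESC at each base 9. GGACA sites responded more often than AGACA sites with A (52.0% of 50 against 20.6% of 34), C (50% of 30 against 33.3% of 21), G (46.5% of 71 against 39.2% of 51) and T (53.8% of 39 against 36.0% of 25) after the triplet. In EB the pairs were 30% and 17.2% for A, 20.8% and 12.5% for C, 25.9% and 17.1% for G, and 35.5% and 21.7% for T. Without a split by base, 55.4% of all listed sites responded in ESC and 41.9% in EB. Whether the shares by base 9, or by bases 4 and 9, differ between the class and all listed sites was not tested. The combination with the lowest ESC share was AGACAA, the best-cut one of the class in WT (median 0.854 in ESC). GGACAG had the lowest levels, 0.26 in ESC WT and 0.411 in ESC KO.

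Distance to the nearest exon junction gave a wider range of responding shares than either base. It was known for 427 of the 438 intermediate sites to which a gene could be assigned. In ESC 21 of 72 sites within 50 nt (29.2%) responded, then 20 of 58 at 51 to 100 nt (34.5%), 23 of 49 at 101 to 200 nt (46.9%), 30 of 50 at 201 to 400 nt (60%) and 32 of 51 beyond (62.7%). In EB the shares started lower, with 2 of 64 (3.13%) and 6 of 46 (13.0%), and went on to 12 of 40 (30%), 17 of 39 (43.6%) and 20 of 41 (48.8%). The share was thus higher at each step in both stages. Split at 100 nt, 41 of 130 near sites (31.5%, Wilson interval 24.2% to 40%) and 85 of 150 far sites (56.7%, 48.7% to 64.3%) responded in ESC, and 8 of 110 (7.27%, 3.73% to 13.7%) and 49 of 120 (40.8%, 32.5% to 49.8%) in EB. Near sites were better cut in WT, at a median of 0.737 in ESC against 0.375 for far sites, while KO levels were 0.821 and 0.798. Among sites with all 4 values, the near and far responding shares of the class in ESC were 33.3% and 57.1%. Over all listed sites with all 4 values they were 33.8% and 66.2%. In EB the class gave 5.88% and 39.0%, and all listed sites gave 14.5% and 53.6%.

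The class lay closer to exon junctions than the high class and farther than the low class, at median distances of 142, 268 and 63 nt. Within both motifs the far sites responded more often: in ESC 65.2% of far and 35.9% of near GGACA sites, and 44.3% and 25% of AGACA sites. In EB it was 49.3% and 9.09% for GGACA and 29.4% and 4.55% for AGACA. In the low class the split at 100 nt gave 20.8% of far and 22.2% of near GGACA sites in ESC. Over all listed sites with all 4 values, both motifs joined, far sites responded more often in both stages. Whether the relation to distance differs between classes was not tested. The 8 near sites that responded in EB included those of Usf2, a transcription factor gene, at 22 nt (0.632 in WT and 0.851 in KO), Myef2 at 57 nt (0.595 and 0.898) and Kmt2d, a histone H3 lysine methyltransferase gene, at 63 nt (0.216 and 0.5). These 3 were chosen after their values were seen.

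**Figure D3:**
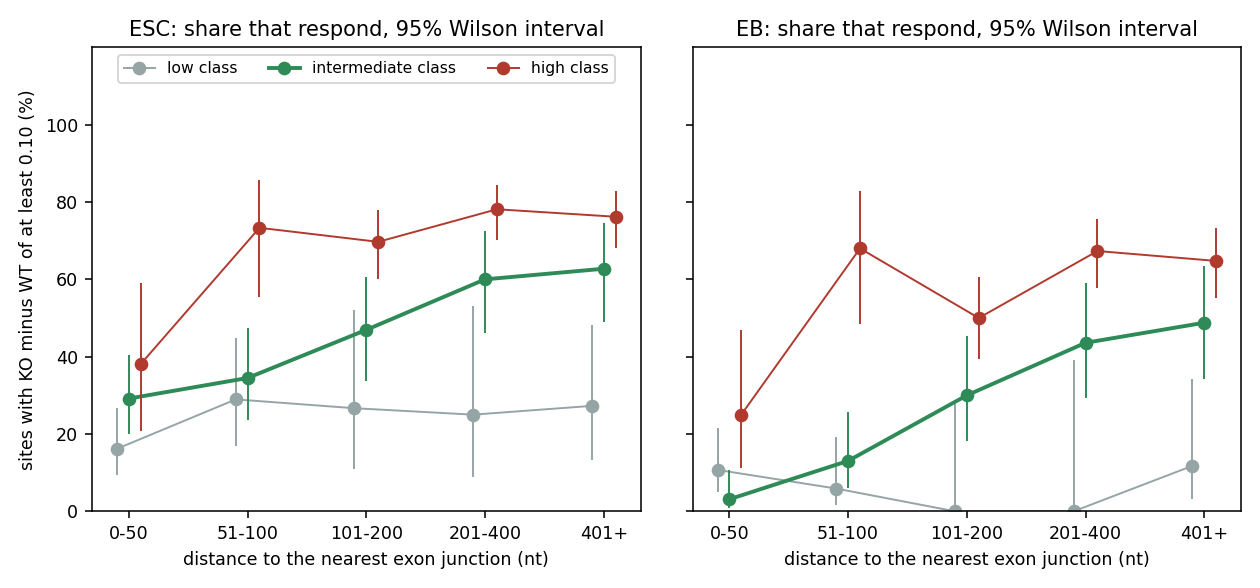
Percent of sites with KO minus WT of at least 0.10 (vertical) by distance to the nearest exon junction in nt (horizontal), in a panel for each stage, with 95% Wilson intervals over sites; the intermediate class is green, the low class grey and the high class red. In the intermediate class the share runs from 29.2% to 62.7% in ESC and from 3.13% to 48.8% in EB.

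By region, 275 of the 438 assigned sites lay in the CDS (62.8%), 76 in the 3′ UTR (17.4%), 64 in the 5′ UTR (14.6%) and 23 in transcripts without a CDS. Among all assigned sites the shares were 55.9%, 31.5% and 8.29%. In ESC 89 of 180 CDS sites (49.4%), 22 of 42 in the 3′ UTR (52.4%) and 14 of 48 in the 5′ UTR (29.2%) responded. In EB it was 40 of 145 (27.6%), 12 of 35 (34.3%) and 3 of 40 (7.50%). The CDS joins 97 sites within 100 nt of a junction, of which 33.0% responded in ESC, and 80 farther ones, of which 68.8% did. The far CDS sites were above the 3′ UTR sites beyond 100 nt (50% of 40), and in EB the same pair was 50.8% of 63 and 36.4% of 33. Over all listed sites of any region, 55.4% responded in ESC and 41.9% in EB. Whether the shares by region differ between the class and all listed sites was not tested.

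The sites with all 4 values allow the stages to be set side by side. Of these 237, 101 (42.6%) responded in ESC and 51 (21.5%) in EB, 45 in both, 56 in ESC alone, 6 in EB alone and 130 in neither. The 45 make up 44.6% of the ESC list and 88.2% of the EB list, where the shares over all sites were 69.3% and 92.2%, and 19.0% of the 237, against 37.2% over all 759 such sites of the table. At 163 of the 237 sites the difference was smaller in EB than in ESC. It was smaller by at least 0.10 at 72 sites (30.4%) and larger by that size at 12 (5.06%), against 32% and 5.53% of all sites. The median change from ESC to EB over these sites was 0.0387 in WT and −0.00485 in KO. Of 322 sites that had a WT value in each stage, 74 (23%) were higher in EB by at least 0.10 and 23 (7.14%) were lower, against 26.4% and 5.51% of all sites. In KO 19 of 258 (7.36%) were higher and 31 (12%) lower, against 7.1% and 11.1%. Pearson's r between the differences of the stages was 0.817 across the 237 sites, which share libraries and are not replicates.

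The overlap between stages was also counted by distance to an exon junction. Within 100 nt, 34 of 102 sites with all 4 values responded in ESC, 6 in EB and 5 in both. Beyond 100 nt it was 60 of 105 in ESC, 41 in EB and 37 in both. The sites called in both stages were thus 14.7% of the near and 61.7% of the far ESC responders, where all listed sites gave 35.1% (27 of 77) and 76.3% (212 of 278). Near and far overlaps were not tested against each other. The median shift of WT from ESC to EB was 0.0428 near and 0.0409 far, and the median ESC difference was 0.052 near and 0.125 far. By motif, 33 of the 69 GGACA sites that responded in ESC and 12 of the 32 AGACA sites also responded in EB. With both motifs joined it was 45 of 101 (44.6%) in the class and 282 of 407 (69.3%) over all listed sites. Whether the motifs differ in this was not tested.

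**Figure D4:**
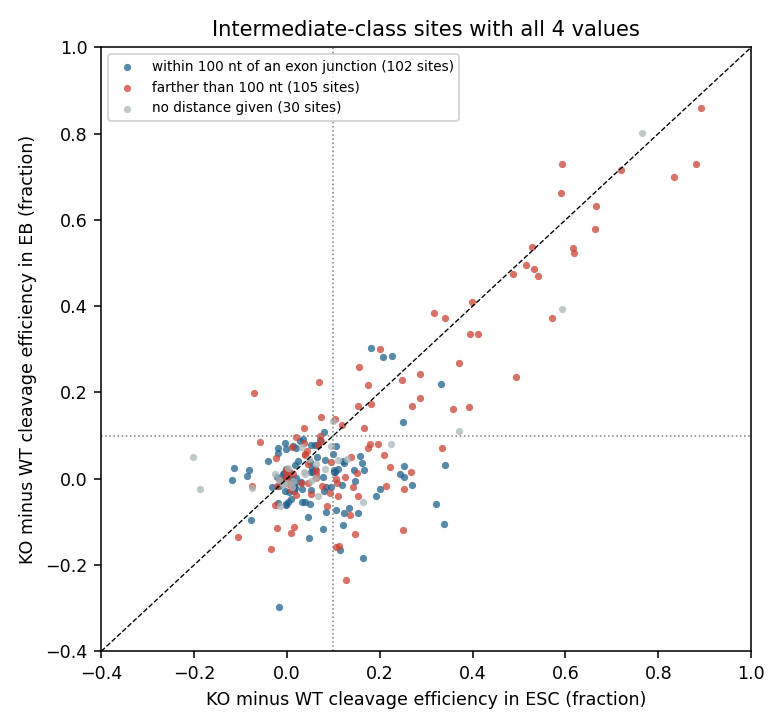
KO minus WT cleavage efficiency (fraction) in ESC (horizontal) and EB (vertical) for the 237 intermediate sites with all 4 values, in blue within 100 nt of an exon junction, in red farther away and in grey with no distance known; dotted lines mark 0.10 and the dashed line equal differences. Of the 101 sites right of the dotted vertical line, 56 lie below the dotted horizontal line, and sites of large difference lie near the dashed line.

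Further sites of large difference in ESC were those of Foxm1, a transcription factor of mitotic genes, at 0.100 in WT and 0.952 in KO, and Kctd6 at 0.0408 and 0.795. Zfp830 (0.286 and 0.944) and the semaphorin gene Sema4b (0.268 and 0.922) followed. None of these 4 had an EB pair. In EB, Heca was at 0.250 in WT and 1 in KO, the potassium channel gene Kcnk1 at 0.273 and 0.977, and Gng2, a G protein gamma subunit gene, at 0.231 and 0.895. These 3 had no ESC pair.

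Few sites were lower in KO by at least 0.10. Of the 237 with all 4 values, 5 were in ESC, 17 in EB and 1 in both. Over all 759 listed sites with all 4 values the counts were 14, 46 and 3. Whether the stages differ in this was not tested. The lower sites named next were taken from all those with an assigned gene and both values of the stage. In ESC they were led by the DNA helicase gene Helb, at 0.811 in WT and 0.444 in KO, the histone methyltransferase gene Nsd2 (0.531 and 0.321), Zbed6 (0.390 and 0.188) and Itm2a (0.957 and 0.769). Of these, Zbed6 alone had an EB pair, and there it was at 0.2 in WT and 0.250 in KO. In EB they were led by the adenosine kinase gene Adk, at 0.333 in WT and 0.0364 in KO, whose ESC values were 0.0172 and 0. The site of Phb2, a prohibitin gene, was at 0.672 and 0.437 in EB and at 0.523 and 0.650 in ESC, and Cuedc2 and Glg1 had EB differences of −0.184 and −0.165 after 0.165 and 0.115 in ESC.

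Among the sites reported, the larger shifts of WT between stages were upward. The site of Fnbp4 went from 0.498 to 0.905 in WT and was at 0.837 and 0.8 in KO. Its KO minus WT difference was 0.339 in ESC and −0.105 in EB, so that the change lay mostly in the WT column. Kctd10 (0.0789 and 0.397 in WT), Adk and Atp6ap1, an accessory subunit gene of the vacuolar proton pump (0.284 and 0.590), followed. The downward shifts were smaller, led by Ccdc88c (0.540 and 0.3), the noncoding RNA Tug1 (0.595 and 0.368), Naa15 (0.680 and 0.471), Zbed6 and Zc3hav1 (0.750 and 0.562). The difference between genotypes was larger in EB than in ESC by 0.270 in Tle4, 0.252 in Zbed6, 0.155 in Trmt5 and 0.143 in Naa15, and smaller by 0.444 in Fnbp4, 0.379 in Kctd10, 0.368 in Scaf11 and 0.363 in Phb2.

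Sites that stayed uncut without Mettl3 gave no room for a response. Among sites with an assigned gene and both KO values, the lowest in KO were in Pygb, a glycogen phosphorylase gene, listed at 0 in the 3 columns with a value, and in Eif5 (0.00912 in WT and 0 in KO in ESC, and 0.00852 and 0.0049 in EB). Caprin1, Vapa and the glycyl-tRNA synthetase gene Gars ranged from 0 to 0.0324 over all 4 columns, and Adk was at 0 in ESC KO and 0.0364 in EB KO. Apart from Adk, with T at base 9, these sites have G there. Outside this list, the site of Slfn8, with T at base 9, was listed at 0 in both ESC columns and had no EB value, and a site without an assigned gene, with A there, was at 0.0036 and 0.00472 in KO. Both were chosen after their values were seen. Eif5, Caprin1, Vapa and Adk lie in the 5′ UTR.

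Several intermediate sites share their whole 11-base sequence with another, and their values are set side by side here. Sites of unlike sequence were not compared in the same way, so what the sequence alone fixes was not tested. There were 26 such sequences at 55 sites, and 11 of them had ESC pairs at 2 or more sites. The range of the ESC difference within a sequence had a median of 0.0852, and in 3 of the 11 one site responded and another did not. Those sequences were the following.
Kctd10 and Bzw1: aggAGACAGcg
Atp6ap1 and Caprin1: cggGGACAGgg
Samd1 and Eif3c: ggaGGACAAtg

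In the first, Kctd10 (CDS) was cut to 0.0789 in ESC WT and 0.400 in KO, and Bzw1 (5′ UTR) to 0.0306 and 0.0357. In the second, Atp6ap1 (CDS) was at 0.284 and 0.551 and Caprin1 (5′ UTR) at 0.0142 and 0.0155. Identical letters thus stood beside KO levels that differed by 0.364 and 0.535. In the third, Samd1 and the initiation factor gene Eif3c had KO levels of 0.922 and 0.889 and WT levels of 0.714 and 0.835. Both CDS sites lie within 100 nt of a junction, at 74 and 52 nt.

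Of the 426 genes, 11 held more than 1 intermediate site, 23 sites in all. Ahnak, which encodes a giant scaffold protein, had 3, all in the CDS and at least 4097 nt from a junction. Its AGACA site was at 0.278 in WT and 0.618 in KO in ESC, and at 0.191 and 0.565 in EB. Its GGACA sites were cut to 0.0120 and 0.0819 in ESC WT and to 0.0826 and 0.155 in ESC KO, and in EB to 0.0315 and 0.0303 in WT and 0.131 and 0.174 in KO. All 3 were higher in KO in both stages, with the larger differences at the AGACA site. In Son, the second site (GGACA) had 0.503 and 0.898 in ESC and 0.608 and 0.944 in EB, a smaller difference than at the AGACA site printed above.

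Of the gene lists, the m6A pathway had 2 intermediate sites. The site of Ythdf2, the reader that directs methylated RNA to decay, was at 0.199 in WT and 0.732 in KO in ESC, and at 0.125 and 0.612 in EB. That of Prrc2a, a reported m6A-binding protein gene, was at 0.455 and 0.639 in ESC and had 0.755 in EB WT with no EB KO value. Both responded in ESC, where 43.0% of the class and 55.4% of all sites did. The pluripotency list had 1 site, in Stat3 of the LIF pathway, with 0.974 in ESC WT and 0.841 in EB WT and no KO value.

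Splicing genes had 7 intermediate sites in 6 genes, and 6 of 7 responded in ESC, 2 of them in Son, where 43% of the class and 55.4% of all sites did. Their median was 0.25 against 0.0732 over the class. In EB 2 of 5 did, both in Son, against 23.7% of the class and 41.9% of all sites, and Scaf11 was lower by 0.118. Besides Son these were Scaf8 (0.340 in WT and 0.952 in KO in ESC), Scaf11 (0.476 and 0.726), Srsf4, an SR splicing factor gene (0.797 and 0.921), and Prpf31 (0.704 and 0.810), while Scaf4 was at 0.606 and 0.633. Chromatin genes had 13 sites, to be read against the same shares. In ESC 2 of 7 responded, in the histone demethylase gene Kdm5a (0.405 in WT and 0.976 in KO) and in Kmt2d (0.219 and 0.446), 1 was lower (Nsd2), and the median was 0.0632. In EB 3 of 7 did, in Kdm5a, Kmt2d and Arid2. Sites of Sirt1, Brd3 and Kat7 differed by 0.0632, 0.0329 and 0.0773 in ESC. Translation genes had 5 sites with a median of 0.0164 in ESC. Mrpl33 of the mitochondrial ribosome responded in both stages (0.166 and 0.118), and Eif4a1, Rpl4 and Eif3c were cut to at least 0.835 in every column. These lists are short, and their counts are read as descriptions of the genes named.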

How the data were processed

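Per the labels, 10 libraries of polyA RNA fall into 4 groups. The authors deposited 1 table, with a cleavage efficiency per site and group that is a fraction from 0 to 1, per the file headers and the values. The submitters' processing notes name STAR 2.5.3a, bedtools 2.26.0 and mm9 without roles. The sources used here do not say how reads were counted or libraries joined; the depth is unknown.

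Differences were taken site by site with no filter. Intervals on medians (order statistics), shares (Wilson) and gaps (Newcombe) are at 95% and describe the spread over sites. The functions were tested on simulated data. Python 3.11.15 with pandas 2.3.3 and scipy 1.17.1 was used.

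Genes were assigned by matching the 11-base sequence to GENCODE M21 transcripts on the same chromosome and strand, at most 100 nt from the deposited position in the transcript and 10 Mb from that in the genome. The shift between builds had to recur at a site of a different gene among the 3 nearest on each side, which left 438 of 491 sites (426 genes). On the opposite strand, 22 sites matched. Regions and junctions are those of the matched transcripts; coordinates are mm9 as deposited, none converted.

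Members and lists were chosen with earlier results of these data known. Named sites (1 per gene) were, per stage, the 10 largest upward and 4 largest downward differences. Also named were the 8 largest per motif over both stages, the 5 largest WT shifts and the 4 largest shifts of the genotype difference each way, the 6 lowest in KO, genes with 3 sites, and sites in 5 gene lists. Alternatives were another size, other subsets of sites, column centring, the mean and a relative response. One site that the rule names is not reported here.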

Additional observations from a re-analysis of the deposited data

How the results depend on the processing

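No paired analysis was possible because the table has 1 column per group and none per replicate; libraries could not be left out for the same reason. Subtracting each column's median moved every KO minus WT difference by −0.373 in ESC and −0.266 in EB and every EB minus ESC difference by −0.0963 in WT and 0.0107 in KO. This also takes off any genotype effect that most sites share. Medians then became −0.300 for KO minus WT in ESC, −0.247 in EB, −0.0598 for EB minus ESC in WT and 0.00792 in KO (−0.00277 as deposited). Responding shares became 10.9% in ESC and 9.92% in EB, the gap to the low class in ESC 10.3 points, and that to the high class 19.0 points in ESC and 19.4 in EB. At a size of 0.20 the shares were 24.6% and 16.4%, and the EB gap to the high class was 28.5 points. With KO of at least 0.20 the ESC share was 48.9% and the ESC median 0.0953, and the relative response gave 34.4% in ESC. Means in place of medians were 0.144 and 0.0786 for KO minus WT in ESC and EB, and 0.0464 for EB minus ESC in WT. Of 124 values under the alternatives 99 kept their direction and stayed within the interval of the value as reported, and 7 of the 21 that moved were shares by base 9. The gap between GGACA and AGACA ranged from 9.14 to 22.2 points over both stages, with 0 inside its EB interval under 3 alternatives. The number of reads behind each value limits all counts near 0.10.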

Other observations

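Responding shares by further bases of the sequence were looked at after the values were seen, at positions 1, 2, 3, 10 and 11, and the relation of each base to exon junctions and region was not tested. By the base at position 10, 40 of 66 intermediate sites with T (60.6%) and 34 of 64 with A (53.1%) responded in ESC, against 26 of 74 with C (35.1%) and 38 of 117 with G (32.5%). In EB it was 39.0% with T, 34.0% with A, 13.4% with C and 15.1% with G. Over all listed sites the ESC shares were 73.5%, 57.1%, 46.0% and 44.0%. At position 2, sites with A (51.5% of 99) or T (54.8% of 42) responded more often in ESC than those with C (40.0% of 60) or G (33.3% of 120), and in EB the shares were 35.1%, 27.8%, 15.1% and 18.2%. Over all listed sites the ESC shares at position 2 were 65.8% with A, 59% with T, 51.9% with C and 46% with G. At the other positions looked at, the ESC shares of intermediate sites ran from 33.9% (T) to 49.5% (G) at position 1, from 38.9% (C) to 48.4% (G) at position 3 and from 38.9% (G) to 54% (C) at position 11.

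At 9 of the 237 intermediate sites with all 4 values (3.8%), against 19 of 759 over the whole table (2.5%), KO differed from WT by at least 0.10 in opposite directions. The 9 were upward in ESC and downward in EB, and they lay in Ndufs1, Scaf11, Cuedc2, Fnbp4, Wnk1, Phb2, Knop1, Atp13a1 and Glg1. All ESC differences there were between 0.106 and 0.339 and all EB differences between −0.105 and −0.235. Whether the stages differ at these sites was not tested.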
